A study of Oryza sativa with 239 samples.

Results

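Drought was compared with irrigation in the leaves of WRC01 and Koshihikari, a pair of temperate japonica rices (Oryza sativa), in 12 of the 239 RNA sequencing libraries of a series on 40 cultivars and lines. The libraries were taken by the cultivar in their titles, which gave 6 drought and 6 control libraries. WRC01 is a number of the World Rice Core collection and is read here as Nipponbare, the cultivar whose genome serves as the rice reference. Koshihikari is a Japanese eating-quality variety.

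The 4 groups were moderate drought and control in WRC01, and moderate drought and control in Koshihikari, with 3 libraries each, all harvested on day 5 of the treatment. Seedlings of both cultivars grew singly in pots of calcined clay in a growth chamber, on a nutrient solution supplied by automatic irrigation. Drought pots were left to drain and control pots stayed irrigated, and no mutation, transgene or chemical agent is recorded for any group. The sample labels name moderate drought, but a severe drought with later rewatering is written in the treatment protocol. The sample labels were followed. Each leaf sample joined the latest leaf that had fully opened with its next older neighbour. The labels do not say that each library came from a separate plant, so the p-values measure the spread between these libraries, which may be partly technical.

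In plants that lose water, abscisic acid builds up, stomata close and genes for protective proteins, such as late embryogenesis abundant proteins, are switched on, while genes of photosynthesis and growth are often turned down. Moderate drought, in which leaves still hold water, can change expression before visible wilting. The identifiers look like those of the MSU annotation of rice. The reference table at hand matched 0 of the 55986 identifiers, so genes are given by identifier with the chromosome that the identifier carries, start and end are not given, and functions are not assigned. Lists of abscisic acid, dehydrin, photosynthesis or heat shock genes, and markers of leaf cell types, were not analysed here.

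The drought libraries held 3.01 to 19 M (mega) assigned reads in WRC01 and 7.7 to 21.9 M in Koshihikari, against 7.46 to 22 M and 13.5 to 17.8 M in the control libraries of the same cultivars. The shallowest was WRC01 drought replicate 3. Scaling factors (TMM) were 1.01 to 1.08 in drought and 0.879 to 1.01 in control libraries, and the 100 most read genes took 24.9 to 28.4% of drought reads and 27.1 to 32.5% of control reads. Drought and control libraries were named in separate series, D and C, so an effect of the naming series and one of drought cannot be told apart. The cultivar labels held: 31 genes read only in irrigated WRC01 and 10 read only in irrigated Koshihikari were found in the drought libraries of their own cultivar and in none of the other. In a principal component analysis of the 12 libraries the first component (30.5% of the variance) separated the cultivars. The second (24.1%) separated drought, at 8.24 to 50.8, from control, at -55.1 to -17, with Koshihikari drought replicate 3 nearest to the control libraries. Replicates differed by more than counting noise, with a chi-square per gene of at least 10.6 for any pair.

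With cultivar as a term in the model, 896 of 20480 tested genes (4.38%) were at least 2-fold apart in drought and control libraries at an adjusted p under 0.05 (edgeR's quasi-likelihood test, Benjamini-Hochberg adjustment). Of these, 591 were higher in drought (2.89% of the tested genes) and 305 were lower (1.49%). The log2 fold change had a median of 1.53 for higher calls and -1.41 for lower calls, and of 0.0019 over all tested genes. A 4-fold or larger change was found for 239 genes, 169 higher and 70 lower. Whole leaves were sampled, so fewer cells of a type and less RNA per cell cannot be told apart. At any fold, 2862 genes (14%) passed, 1682 of them higher (8.21%) and 1180 lower (5.76%). Without Koshihikari drought replicate 1 the count at the fold minimum was 692, the lowest when any 1 library was left out, and with all libraries thinned to the shallowest it was 547.

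LOC_Os07g08160, on chromosome 7, had the largest rise under the naming rule, which took called genes of at least 5 CPM (reads of a gene scaled to the same library total) that went one way in all same-numbered pairs of drought and control libraries. It stood at 24.3, 24.5 and 69.1 CPM in the WRC01 drought libraries, against 2.25, 2 and 1.47 CPM in WRC01 control. In Koshihikari it stood at 32.2, 24.4 and 4.21 CPM in drought, against 1.17, 0.974 and 0.367 CPM in control. Every drought library lay above every control library, although Koshihikari drought replicate 3 was far below the other 2 of its group. The log2 fold change was 4.40 (SE 0.47, adjusted p = 0.000175). LOC_Os04g49210, on chromosome 4, had 17.1, 5.72 and 1.23 CPM in WRC01 drought, against 0.549, 0.6 and 0.268 CPM in WRC01 control. In Koshihikari the gene had 24.1, 7 and 3.97 CPM in drought, against 0.073, 1.16 and 1.69 CPM in control. Drought and control were apart within each cultivar, but the lowest drought value, in WRC01, fell among the control values of Koshihikari. Its log2 fold change was 3.82 (SE 0.62, adjusted p = 0.00179).

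Under the same rule the largest fall was that of LOC_Os05g34170, on chromosome 5. Its level was 2.06, 6.37 and 2.15 CPM in WRC01 drought, against 118.9, 157.1 and 108.6 CPM in WRC01 control. Koshihikari had 0.787, 8.75 and 2.11 CPM in drought, against 31.2, 158.1 and 83.9 CPM in control. The 6 drought libraries lay below the 6 control libraries with no overlap, and the log2 fold change was -4.84 (SE 0.53, adjusted p = 0.000197). LOC_Os03g60840, on chromosome 3, had 1.23, 1.04 and 0.307 CPM in WRC01 drought, against 24, 8.4 and 21.4 CPM in WRC01 control. Koshihikari had 0.35, 2.17 and 0.744 CPM of it in drought, against 4.01, 30.7 and 13.9 CPM in control. Again no drought library reached a control library, and the gene fell by 4.05 on the log2 scale (SE 0.53, adjusted p = 0.000496).

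**Figure D1:**
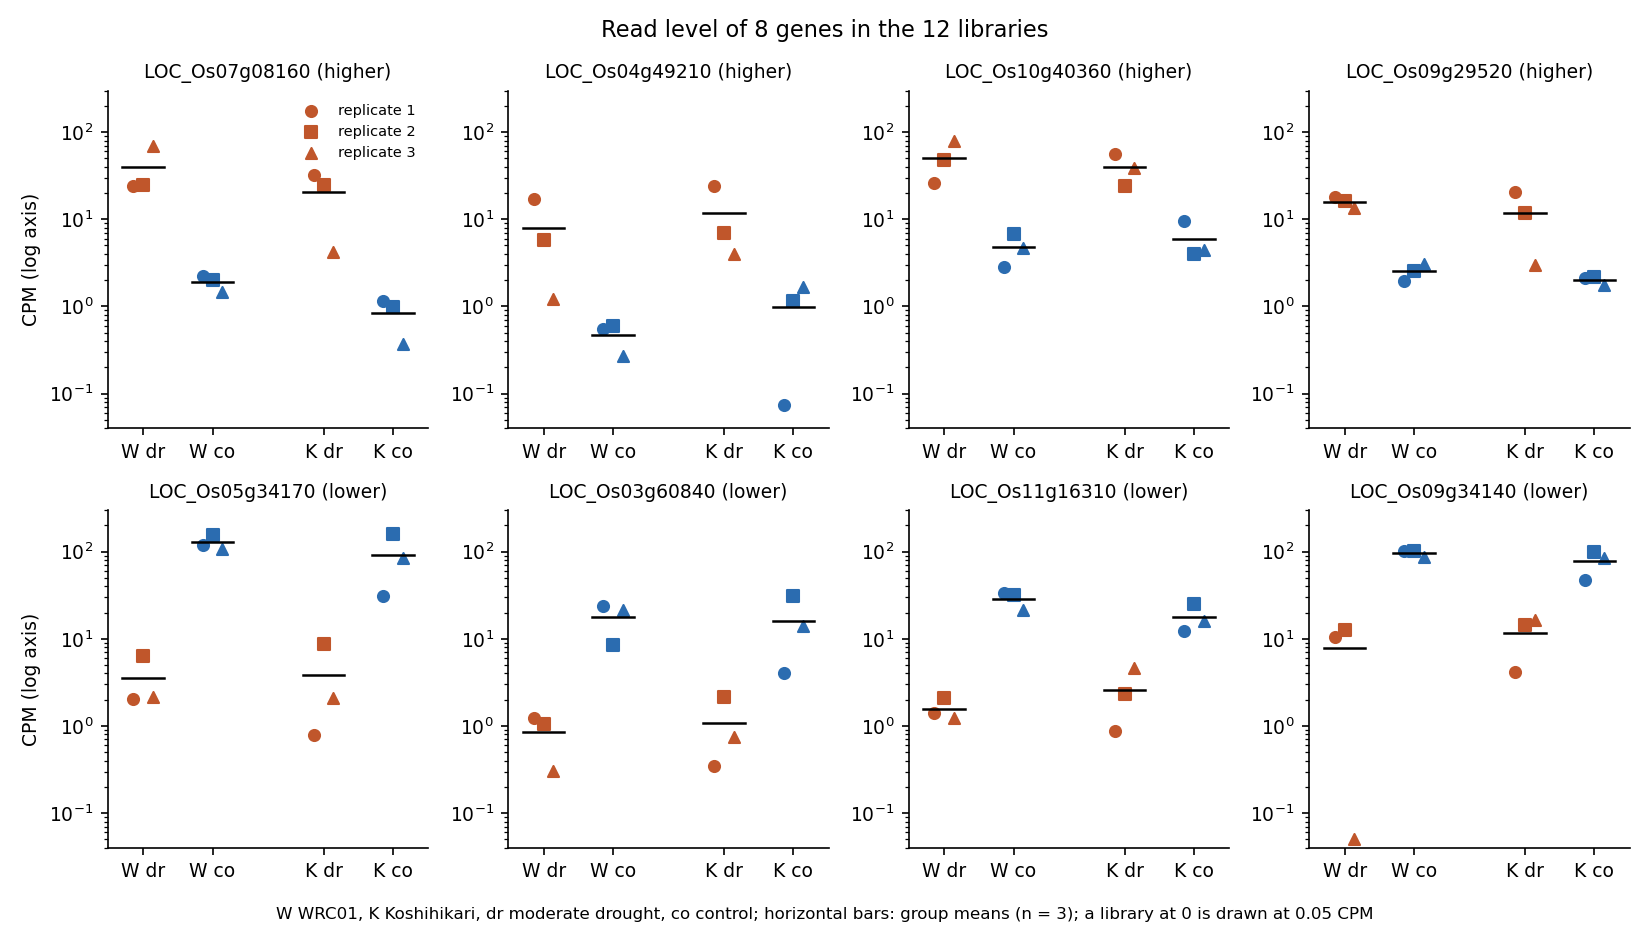
Level of 8 genes (CPM, log axis) in the 12 libraries, with drought in orange and control in blue, replicates 1 to 3 as circle, square and triangle, and a bar at each group mean. The upper 4 genes were higher and the lower 4 lower in drought, and LOC_Os05g34170 shows the widest gap, with every drought library at or under 8.75 CPM and every control library at or over 31.2 CPM.

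Nearly all of these calls had the same sign in both cultivars. Of the 896 genes, 891 moved in the same direction in WRC01 and in Koshihikari, against 72.6% of all tested genes. Among the genes called higher, the median log2 fold change was 1.64 in WRC01 and 1.47 in Koshihikari, and among those called lower it was -1.61 in WRC01 and -1.31 in Koshihikari. In 412 of the 896 genes the 6 drought libraries did not overlap the 6 control libraries (1185, or 5.79%, among all tested genes), and in 519 they did not overlap within either cultivar (8.55% of all tested genes). Fewer of the 896 were called when each cultivar was tested by itself, as given below. In those tests 438 were called in neither cultivar, 331 in WRC01 only and 18 in Koshihikari only, and the rest in both. The same sign in both cultivars is thus not a call in both. These counts, medians and shares describe genes chosen on the same libraries.

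Within WRC01 alone, 601 genes (2.93%) were called, 334 of them higher and 267 lower in drought. LOC_Os05g25770, on chromosome 5, had 87.5, 73.4 and 28.9 CPM in WRC01 drought, against 6.94, 3.67 and 2.41 CPM in WRC01 control. The drought values were all above the control values, and the log2 fold change was 3.81 (SE 0.71, edgeR adjusted p = 0.0118). In Koshihikari the same gene had 149.9, 61 and 17 CPM in drought, against 3.94, 11.1 and 10.8 CPM in control, and just missed the call with a log2 fold change of 3.15 (SE 0.67, adjusted p = 0.0506). LOC_Os09g36200, on chromosome 9, had 11.2, 26.2 and 51.3 CPM in WRC01 drought, against 2.2, 2.6 and 1.47 CPM in WRC01 control. It rose by 3.69 on the log2 scale in WRC01 (SE 0.57, adjusted p = 0.00539), with no overlap. Koshihikari drought libraries had 35.3, 10.8 and 17.1 CPM, against 3.79, 6.15 and 4.41 CPM in its control libraries, with a log2 fold change of 2.15 (SE 0.51, adjusted p = 0.0695).

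Among the genes called lower in WRC01 and not yet named, LOC_Os04g32850 on chromosome 4 had the largest fall by the naming rule. It stood at 1.08, 1.17 and 1.23 CPM in WRC01 drought, close together, against 19.7, 17.7 and 54.1 CPM in WRC01 control. The log2 fold change was -4.71 (SE 0.96, edgeR adjusted p = 0.0175). The call was lost when any of the WRC01 drought libraries was left out. The Koshihikari values overlapped, with 0.219, 4 and 9.05 CPM in drought, against 8.61, 38.8 and 23.7 CPM in control. LOC_Os02g14440, on chromosome 2, had 0.54, 1.49 and 0.614 CPM in WRC01 drought, against 13.8, 11.1 and 36.2 CPM in WRC01 control. It fell by 4.40 on the log2 scale (SE 0.84, adjusted p = 0.0129). In Koshihikari it had 1.05, 2.08 and 3.35 CPM in drought, against 4.23, 35.7 and 13.4 CPM in control, apart in rank but with a log2 fold change of -3.18 (SE 0.74) at an adjusted p of 0.0668. The WRC01 count was 154 without its control replicate 1, 263 without its drought replicate 2 and 270 without its drought replicate 3.

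Within Koshihikari alone, 129 genes (0.63%) were called, 73 higher and 56 lower. LOC_Os08g04500, on chromosome 8, had the largest rise under the naming rule among the genes not yet named. It had 187, 119.9 and 173 CPM in WRC01 drought, against 12.1, 25.3 and 31.7 CPM in WRC01 control, and rose there by 2.81 on the log2 scale (SE 0.30, edgeR adjusted p = 0.00153). In Koshihikari it had 195, 158 and 144 CPM in drought, against 19.6, 14.8 and 13 CPM in control, and rose by 3.40 (SE 0.31, adjusted p = 0.00134). The replicates lay close to each other and far from the other treatment. LOC_Os01g14410, on chromosome 1, had 8.59, 11.4 and 14.7 CPM in WRC01 drought, against 2.6, 3 and 1.07 CPM in WRC01 control, and rose by 2.25 (SE 0.50, adjusted p = 0.0232). In Koshihikari the gene had 14.7, 8 and 2.85 CPM in drought, against 0.949, 1.89 and 1.03 CPM in control, and rose by 2.75 (SE 0.52, adjusted p = 0.0337). Drought replicate 3 of Koshihikari was the lowest of the drought libraries.

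Of the genes called lower in Koshihikari, LOC_Os05g33840 on chromosome 5 had 30.4, 27.7 and 4.61 CPM in WRC01 drought, against 420.3, 496 and 356 CPM in WRC01 control. It had 6.95, 42.5 and 37.2 CPM in Koshihikari drought, against 188, 472 and 311 CPM in Koshihikari control. The gene fell by 4.26 on the log2 scale in WRC01 (SE 0.67, edgeR adjusted p = 0.00562) and by 3.50 in Koshihikari (SE 0.64, adjusted p = 0.0314). LOC_Os08g03310, on chromosome 8, had 26.1, 39.9 and 9.52 CPM in WRC01 drought, against 344, 352 and 279.8 CPM in WRC01 control. It had 19.1, 30.9 and 28.5 CPM in Koshihikari drought, against 92.4, 298 and 231 CPM in Koshihikari control. It fell by 3.63 in WRC01 (SE 0.47, adjusted p = 0.00237) and by 2.99 in Koshihikari (SE 0.45, adjusted p = 0.0177). In neither gene did a drought library reach a control library, in either cultivar.

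The Koshihikari count rested on single libraries. It was 1 without control replicate 2 and likewise 1 without control replicate 3, 3 without drought replicate 1, 24 without drought replicate 2, and 291 without drought replicate 3, the library nearest to the controls in the principal component analysis. Leaving out WRC01 drought replicate 2, which shares the estimate of the spread, gave 55. With each cultivar fitted alone by edgeR, WRC01 had 748 called genes and Koshihikari had 2. With DESeq2 in place of edgeR the Koshihikari count was 383, and with the replicate number as a block it was 292. Of the 8 genes named here and below for a call in Koshihikari, LOC_Os08g04500 kept it in all 16 alternatives run. The others lost it without drought replicate 1, without control replicate 2 and without control replicate 3 of that cultivar.

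In both cultivars and the same direction, 60 genes were called higher and 49 lower in drought (0.532% of the tested genes together), and 0 genes were called in opposite directions. These genes made up 18.1% of the WRC01 genes and 84.5% of the Koshihikari genes. With the replicate number as a block 238 genes were called in both. Their number, both directions together, was 3 without Koshihikari drought replicate 1, 24 without Koshihikari drought replicate 2, 1 without control replicate 2 and 1 without control replicate 3 of that cultivar, and 204 without its drought replicate 3. Without WRC01 drought replicate 2 it was 45 and without WRC01 control replicate 1 it was 54.

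LOC_Os10g40360, on chromosome 10, had the largest rise under the naming rule among these genes not yet named. It had 26.1, 47.9 and 78 CPM in WRC01 drought, against 2.8, 6.8 and 4.69 CPM in WRC01 control, a log2 fold change of 3.39 (SE 0.49, edgeR adjusted p = 0.00416). Koshihikari had 55.3, 23.8 and 39.2 CPM in drought, against 9.56, 4.02 and 4.41 CPM in control, a log2 fold change of 2.73 (SE 0.47, adjusted p = 0.0235). All drought libraries lay above all control libraries. LOC_Os09g29520, on chromosome 9, had 18, 16 and 13.5 CPM in WRC01 drought, against 1.95, 2.53 and 3.08 CPM in WRC01 control, and rose there by 2.72 (SE 0.48, adjusted p = 0.01). In Koshihikari it had 20.8, 11.8 and 2.98 CPM in drought, against 2.12, 2.19 and 1.76 CPM in control, and rose by 2.59 (SE 0.48, adjusted p = 0.0333). Replicate 3 of Koshihikari drought was again the lowest of the drought libraries.

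LOC_Os11g16310, on chromosome 11, had 1.42, 2.08 and 1.23 CPM in WRC01 drought, against 33.8, 31.6 and 21.3 CPM in WRC01 control. In Koshihikari it had 0.875, 2.33 and 4.59 CPM in drought, against 12.4, 25.4 and 15.9 CPM in control. It fell by 4.12 in WRC01 (SE 0.47, edgeR adjusted p = 0.00159) and by 2.96 in Koshihikari (SE 0.44, adjusted p = 0.0177). LOC_Os09g34140, on chromosome 9, had 10.6, 12.7 and 0 CPM in WRC01 drought, against 102.9, 100.8 and 86.2 CPM in WRC01 control. The 0 came from the shallowest library, where 0 reads allow up to 0.92 CPM (a limit of 3 reads, for counting error only). In Koshihikari the gene had 4.15, 14.3 and 16.2 CPM in drought, against 47.8, 100.3 and 84.2 CPM in control. It fell by 3.41 in WRC01 (SE 0.60, adjusted p = 0.00897) and by 2.79 in Koshihikari (SE 0.58, adjusted p = 0.0474).

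Genes called in one cultivar mostly had the same sign in the other. Of the 601 genes called in WRC01, 592 (98.5%) had the same sign in Koshihikari, where 72.6% of all tested genes had the same sign in both. In Koshihikari 485 of them (80.7%) had the same sign and an unadjusted p under 0.05, against 13.7% of all tested genes with such a p in Koshihikari in either direction. In Koshihikari the median log2 fold change of the WRC01 genes was 1.05 for those called higher and -1.02 for those called lower. All 129 genes called in Koshihikari had the same sign in WRC01, and 128 had an unadjusted p under 0.05 there (22.2% of all tested genes), with medians of 1.66 and -2.02. The contrasts shared no library but shared 1 estimate of the spread. Across the 20480 tested genes the log2 fold changes correlated at r = 0.646 (rho 0.612), and at r = 0.698 over the 14188 genes of at least 5 CPM. These are descriptions across genes, which are not independent and which share the same libraries.

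**Figure D2:**
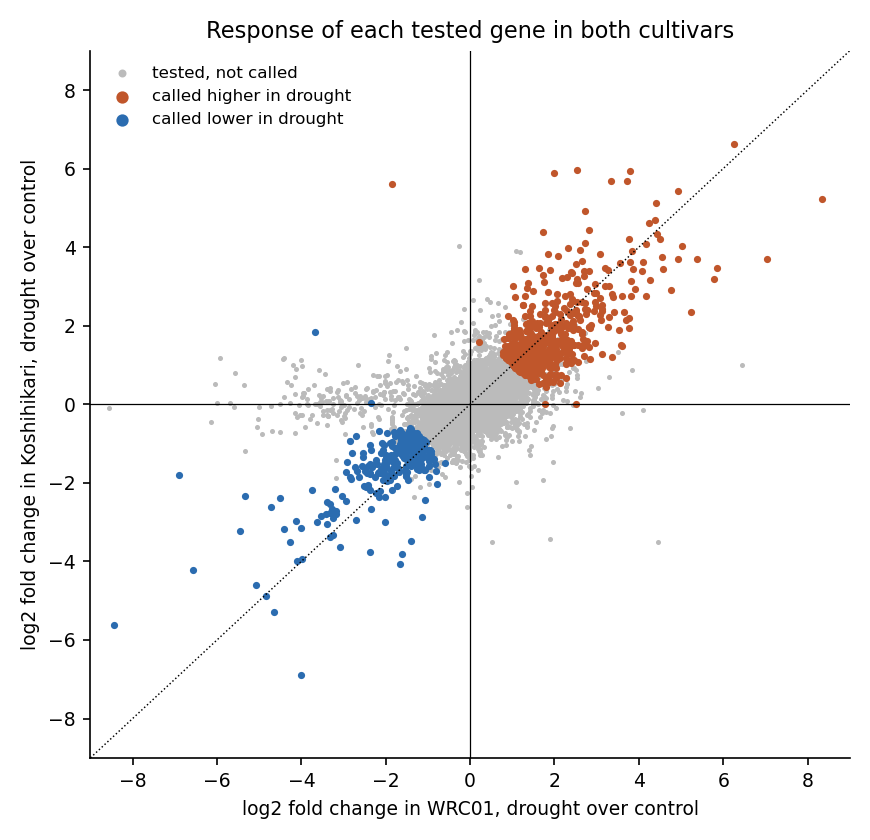
Log2 fold change of drought over control in Koshihikari against that in WRC01, 1 point per tested gene, with the 591 genes called higher in orange, the 305 called lower in blue and the rest grey. Nearly all coloured points lie in the quadrants of equal sign, and a band of grey points extends to the left at values near 0 in Koshihikari.

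The difference of the responses, WRC01 minus Koshihikari, passed at 0 genes (0%) by edgeR's interaction test and likewise at 0 genes by DESeq2. Before adjustment, p was under 0.05 for 491 genes (2.4%) by edgeR and for 394 by DESeq2, while 1024 would come from evenly spread p-values. The test thus gave large p-values, and the count does not show that the cultivars responded alike. When genes with low counts were kept in the fit, 226 genes passed, 185 of them with the lower value in WRC01, and 220 of the 226 were among the 20480 genes tested above. Among the named genes LOC_Os09g36200 differed by 1.54 (SE 0.75), LOC_Os04g16745 by -3.80 (SE 2.00), LOC_Os11g16310 by -1.16 (SE 0.65) and LOC_Os08g04500 by -0.58 (SE 0.41) on the log2 scale, with an adjusted p of 1 in each case (edgeR).

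The band of genes that were lower in WRC01 drought and near 0 in Koshihikari was looked at after its values were seen, so it was not tested. It held 148 genes with a log2 fold change under -2 in WRC01 and within 1 of 0 in Koshihikari, whereas 7 genes had the reverse pattern. Their summed level was 365, 603 and 3580 CPM in WRC01 drought, against 10900, 11900 and 5400 CPM in WRC01 control. In Koshihikari it was 13300, 939 and 9260 CPM in drought, against 16300, 496 and 7870 CPM in control. The level thus differed strongly between Koshihikari libraries of the same treatment, and replicate 2 was the low one in both treatments. Over the 12 libraries the median r over pairs of these genes was 0.902 on log2 CPM, with a lower quartile of 0.726. All were chosen for a fall in WRC01, which by itself raises r over these libraries. Of the 148, 43 (29.1%) lay on chromosome 10, where 5.29% of all tested genes lie, and 25 (16.9%) on chromosome 4 (8.59% of all tested genes). Many had identifiers close to each other, as from LOC_Os10g21192 to LOC_Os10g21418 and from LOC_Os04g16732 to LOC_Os04g16874. Whether such genes shared reads was not tested. Of the 148, 5 were among the 896, 11 had an adjusted p under 0.05 in WRC01 by edgeR, and 123 were among the 226 that passed the interaction test when low counts were kept.

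Genes called higher and genes called lower differed in the number of reads behind them. CPM is not adjusted for gene length, so these figures describe read depth and not transcript levels. The median was 2.95 CPM for the genes called higher and 10.2 CPM for those called lower, against 13.2 CPM over all tested genes. Of the 1693 tested genes with a mean under 1 CPM, 133 were called higher and 34 lower (9.86% in all). The filter on low counts let a gene in if it had enough reads in the libraries of 1 group. A gene under 1 CPM can thus have entered through the group where it is high. The shares in this range may be partly set by the filter, which was not tested. Of the 1715 genes at 100 CPM or more, 14 were called higher and 58 lower (4.2%). The 896 genes together took 3.86 to 6.11% of the scaled reads of WRC01 drought libraries, against 9.97 to 13.6% in WRC01 control, and 5.33 to 5.65% in Koshihikari drought, against 7.82 to 12.8% in Koshihikari control. Scaling factors moved with treatment as given above, and RLE size factors gave 892 calls, 589 higher and 303 lower, with 891 shared.

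**Figure D3:**
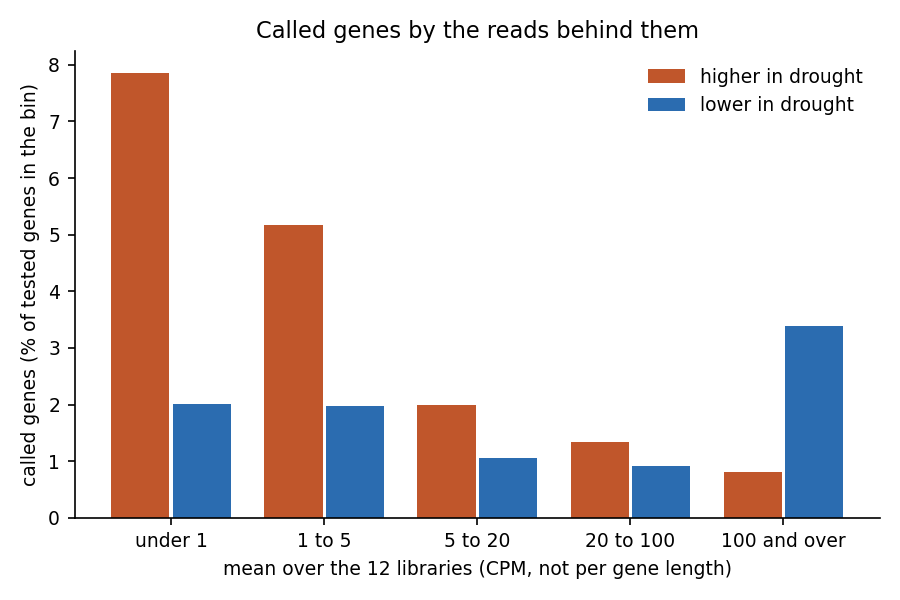
Called genes as a percentage of the tested genes in each range of mean CPM over the 12 libraries, with genes higher in drought in orange and genes lower in drought in blue. Genes higher in drought make up most calls under 1 CPM (133 against 34) and few at 100 CPM or more (14 against 58). Genes under 1 CPM can have passed the filter on low counts through the group where they are high.

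Called genes were spread over all 12 chromosomes, from 3.16% of the tested genes on chromosome 12 to 6.46% on chromosome 10. On chromosome 1, 76.3% of the 139 called genes were higher in drought, and on chromosome 5, 41 of 75 (54.7%). Of the called genes, 185 (20.6%) stood next to another called gene in the order of identifiers, against 8.49% of all tested genes, and for 155 of them (17.3%) a neighbour was called in the same direction. For neighbours of the same direction no share over all tested genes is given. There were 9 stretches of at least 3 neighbouring called genes of the same direction. The longest had 4 genes each, all higher in drought, from LOC_Os04g39290 to LOC_Os04g39350 on chromosome 4 and from LOC_Os05g22716 to LOC_Os05g22724 on chromosome 5. The strand setting of the counting is not given in the sources used here, and overlapping genes or an antisense partner could share reads with a neighbour; their part in these stretches was not tested.

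LOC_Os09g29520 belongs to a stretch of 3 genes that were higher in drought, with LOC_Os09g29530 at a log2 fold change of 1.29 and LOC_Os09g29540 at 4.37. Another stretch of 3 on chromosome 7 was lower in drought, with LOC_Os07g33910 at -2.01, LOC_Os07g33915 at -2.34 and LOC_Os07g33954 at -2.16. For LOC_Os07g33954, which averaged 0.664 CPM and is one of the 148 genes, the value was -2.34 in WRC01 and 0.03 in Koshihikari. LOC_Os05g34170 stood next to LOC_Os05g34160, which was also lower, with a log2 fold change of -2.004. LOC_Os09g29530, LOC_Os09g29540, LOC_Os07g33915 and LOC_Os07g33954 are named outside the rule, after their values were seen.

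The other cultivars gave libraries that had no part in these calls. The comparison used 217 libraries of 37 cultivars and lines, called cultivars here, without WRC09 and without 4 libraries under 1 M reads. Among the 37 is Dro1-NIL, by its name a near-isogenic line, and IR64 is another. The tests took the 37 as independent, and relatedness between them was not modelled. Each cultivar gave 1 value per gene, the mean log2 CPM (prior count 2) in drought minus that in control. Of the 896 genes, 845 (94.3%) had the same sign over the other cultivars, against 77.5% of all tested genes. By direction these were 548 of the 591 genes called higher (92.7%) and 297 of the 305 called lower (97.4%). Over the other cultivars 10211 tested genes (49.9%) passed at an adjusted p under 0.05 at any fold (limma). With the same direction as in the 12 libraries, 665 of the 896 passed (74.2%), against 45.3% of all tested genes. The changes there were smaller: on the same scale the genes called higher had a median of 1.36 in WRC01 and Koshihikari together, against 0.39 over the others, and the genes called lower had -1.40, against -0.68. The 896 genes were chosen for a large change in the 12 libraries, so this gap is a description and not a test.

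Taken the other way, 176 genes (0.859%) were called over the other cultivars by limma, 61 of them higher and the rest lower in drought, and 67% of them were also among the 896. All 61 were higher in the cultivar-term fit, and 55 of them were called. Their median log2 fold change was 1.81 in WRC01 and 1.82 in Koshihikari. The genes called lower over the other cultivars were all lower in that fit, and 63 of them were called, with a median of -3.04 in WRC01 and -1.51 in Koshihikari. Of these, 40 belonged to the 148 genes of the band described above. For the 40 the median was -3.45 in WRC01 and -0.10 in Koshihikari, and for the other 75 it was -2.42 in WRC01 and -1.92 in Koshihikari. The gap between the cultivars over these lists was not tested.

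Library by library, the mean log2 CPM of the 61 genes was 3.63, 3.72 and 3.8 in WRC01 drought, against 1.87, 2.01 and 1.44 in WRC01 control. In Koshihikari it was 4.31, 3.61 and 3.3 in drought, against 2.22, 1.13 and 2.12 in control. No drought library overlapped a control library. Over the genes called lower in the other cultivars the mean was 1.73, 2.19 and 2.53 in WRC01 drought, against 5.32, 4.99 and 4.99 in WRC01 control. In Koshihikari it was 3.44, 2.61 and 3.74 in drought, against 4.68, 3.72 and 4.96 in control. Here the Koshihikari groups touched: drought replicate 3 lay above control replicate 2, and replicate 2 was the lowest library of both treatments. The first mean minus the second was -0.445 in Koshihikari drought replicate 3, the lowest of the drought libraries, and -2.46 in Koshihikari control replicate 1, the highest of the control libraries.

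**Figure D4:**
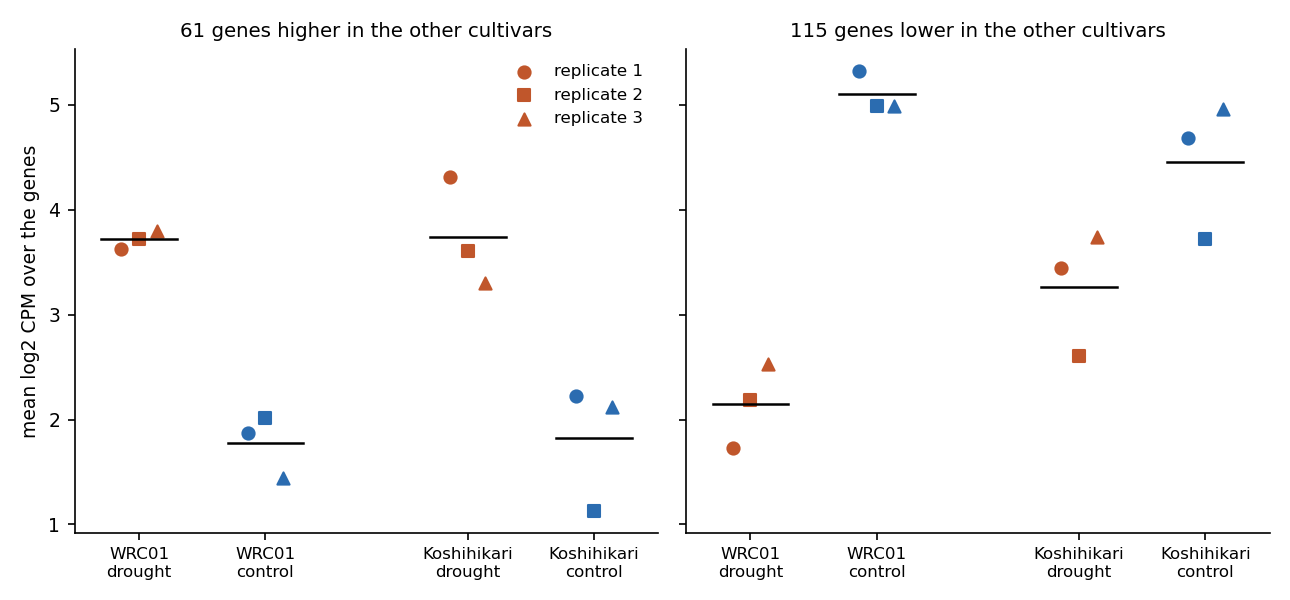
Mean log2 CPM of the 61 genes called higher (left) and of the genes called lower (right) over the other cultivars, in each of the 12 libraries, with drought in orange, control in blue, replicates 1 to 3 as circle, square and triangle, and a bar at each group mean. The left panel shows no overlap of drought (3.3 to 4.31) and control (1.13 to 2.22), and in the right panel Koshihikari drought replicate 3 (3.74) stands just above Koshihikari control replicate 2 (3.72).

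LOC_Os03g54130, on chromosome 3, had one of the 2 largest rises over the other cultivars under the naming rule, 2.10 on the scale of cultivar values (SE 0.25, limma adjusted p = 6.7e-09), higher in 35 of 37. In WRC01 it had 31.8, 68.5 and 150.2 CPM in drought, against 6.69, 31 and 6.03 CPM in control. Koshihikari had 72.2, 17.3 and 96.8 CPM in drought, against 27, 5.72 and 13.4 CPM in control. The groups overlapped in Koshihikari, and the cultivar-term log2 fold change was 2.23 (SE 0.54, edgeR adjusted p = 0.0153). LOC_Os04g16826, on chromosome 4, was higher in all 37 other cultivars, by 1.83 (SE 0.14, limma adjusted p = 2.83e-13). WRC01 had 6.24, 13.3 and 6.14 CPM in drought, against 6.64, 3.13 and 2.54 CPM in control, and Koshihikari had 29.3, 15.3 and 8.43 CPM in drought, against 2.7, 1.03 and 9.85 CPM in control. Both cultivars overlapped, and the call in the cultivar-term fit (log2 fold change 1.55, SE 0.47, edgeR adjusted p = 0.0435) was lost when any of 8 libraries was left out.

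Among genes not yet named, neither of those with the largest falls over the other cultivars under the naming rule was called in the 12 libraries. LOC_Os02g14440 and LOC_Os09g34140, named above, had mean changes of -2.44 and -2.24 over the others and were called with cultivar as a term. LOC_Os09g36680, on chromosome 9, had a mean change of -2.88 over the others (SE 0.36, limma adjusted p = 2.17e-08). Its values were 186.7, 7.01 and 27.3 CPM in WRC01 drought, against 214.3, 43.5 and 1409 CPM in WRC01 control, and 0.131, 73.2 and 5.83 CPM in Koshihikari drought, against 7.88, 32.3 and 107.97 CPM in Koshihikari control. The values ranged widely within each group and the groups overlapped (log2 fold change -1.92, SE 1.15, edgeR adjusted p = 0.296). LOC_Os04g16745, on chromosome 4, had a mean change of -2.08 over the others (SE 0.37, limma adjusted p = 1.11e-05). It stood at 0.589, 4.29 and 25.8 CPM in WRC01 drought, against 239, 211 and 56.1 CPM in WRC01 control, and at 229, 5.17 and 66.8 CPM in Koshihikari drought, against 312, 4.02 and 176 CPM in Koshihikari control. Replicate 2 was low in both Koshihikari groups (cultivar-term log2 fold change -2.34, SE 1.19, edgeR adjusted p = 0.21). Both genes are among the 148 described above.

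Across the 20480 genes, the response of Koshihikari was most like that of WRC01 (r = 0.629), followed by KP (0.597) and WRC18 (0.575). For WRC01 the order was WRC42 (0.668), WRC50 (0.643) and then Koshihikari (0.629). Against the other cultivars the median r was 0.42 for WRC01 and 0.37 for Koshihikari, and over pairs of the other cultivars it was 0.282, with a highest value of 0.674. These correlations describe profiles that rest on 2 or 3 libraries per treatment and share the same genes. The genes were taken by their reads in the 12 libraries, and 364 of them reached 1 CPM in none of the other cultivars. This choice can favour the r between WRC01 and Koshihikari, which was not tested.

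A difference between the response of WRC01 and Koshihikari together and that of the 37 other cultivars passed at 120 genes (0.586%, limma, adjusted p under 0.05), 54 with the higher value in the 2 cultivars and 66 with the lower value. Before adjustment, p was under 0.05 for 1645 genes (8.03%). Of the 120, 61 were among the 896. Many were hardly read elsewhere: 32 reached 1 CPM in none of the other cultivars, as did 364 of all tested genes, and 33 reached it in at least 30 of them. For a gene without reads no change can be measured, so for such genes the difference rests on their being read in WRC01 and Koshihikari. The count was 27 without WRC01, 74 with a prior count of 0.5 and 53 with all cultivars and libraries kept. Among the 16530 genes that reached 1 CPM in at least 30 other cultivars, tested alone, 21 passed.

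LOC_Os05g34170 had the strongest difference among the named genes. Its change was -5.30 in WRC01 and -4.84 in Koshihikari, against -0.21 as the mean of the others (SE 0.12), where it ran from -2.56 in WRC48 to 0.85 in WRC32. The difference was -4.86 (SE 0.53, limma adjusted p = 3.55e-08). In control leaves it averaged 128 ± 25.6 CPM in WRC01 and 91.1 ± 63.8 CPM in Koshihikari (SD, n = 3 each), whereas 19 of the 37 others reached 1 CPM. The median over the others was 1 CPM, drought and control together, with all compared libraries scaled together and not within the 12. Where a gene is hardly read, a fall of this size cannot be measured. The difference of LOC_Os05g34170 thus rests partly on its level in WRC01 and Koshihikari. Its neighbour LOC_Os05g34160 had 4.47, 5.72 and 3.07 CPM in WRC01 drought, against 21.5, 21.9 and 15.1 CPM in WRC01 control, and 2.76, 4.5 and 2.73 CPM in Koshihikari drought, against 9.41, 16.8 and 11.9 CPM in Koshihikari control. Drought and control were apart in both cultivars, and the change differed from that of the others by -1.88 (SE 0.36, limma adjusted p = 0.00185). It reached 1 CPM in 27 of the 37. Without WRC01, without Koshihikari or with all cultivars and libraries kept, the difference of LOC_Os05g34160 did not pass, whereas that of LOC_Os05g34170 passed in these 3 alternatives.

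LOC_Os05g11320, on chromosome 5, was read in all 37 other cultivars. It stood at 3587, 6797 and 5535 CPM in WRC01 drought, against 505, 558 and 1629 CPM in WRC01 control. In Koshihikari it stood at 5081, 4199 and 3290 CPM in drought, against 1008, 2344 and 1101 CPM in control. All 6 drought libraries lay above all 6 control libraries. With all compared libraries scaled together, the median over the others was 8270 CPM, drought and control together. The group means of WRC01 and Koshihikari, scaled within the 12 libraries only, were 5310 and 4190 CPM in drought and 898 and 1480 CPM in control. All were lower, with the 2 scalings not the same. The change was 2.75 in WRC01 and 1.58 in Koshihikari, against a mean of 0.21 in the others (SE 0.10), where it was above 0 in 21 cultivars and below 0 in 16, and where WRC47, at 1.93, lay between WRC01 and Koshihikari. The difference was 1.95 (SE 0.45, limma adjusted p = 0.0182). LOC_Os09g29520 was likewise read in all 37. Its change was 2.62 in WRC01 and 2.09 in Koshihikari, against a mean of 0.31 in the others (SE 0.10), with the highest of them, KP, at 2.22. WRC50, at 2.065, lay just under Koshihikari. The difference of WRC01 and Koshihikari from the others was 2.05 (SE 0.44, limma adjusted p = 0.00827). Neither difference passed with WRC01 left out or with all cultivars and libraries kept, and that of LOC_Os09g29520 did not pass with Koshihikari left out.

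LOC_Os06g38450, on chromosome 6, had 0 reads in all 217 libraries of the other cultivars. In WRC01 it had 16.5, 26 and 8.29 CPM in drought, against 1.5, 2.13 and 2.28 CPM in control, and in Koshihikari 55.3, 27 and 0.868 CPM in drought, against 0.511, 5.54 and 4.48 CPM in control. The WRC01 groups were apart, whereas Koshihikari drought replicate 3 lay among its controls. The cultivar-term log2 fold change was 3.09 (SE 0.64, edgeR adjusted p = 0.00682). Since no change can be measured where all libraries are at 0, its difference from the others is not given as a result. LOC_Os07g33910, on chromosome 7, reached 1 CPM in 3 of the 37. It had 3.63, 2.14 and 0.922 CPM in WRC01 drought, against 15.8, 10.4 and 12.2 CPM in WRC01 control, and 0.262, 2.5 and 1.61 CPM in Koshihikari drought, against 3.5, 4.63 and 3.82 CPM in Koshihikari control. Each cultivar was apart, and the difference from the others was -2.08 (SE 0.27, limma adjusted p = 3.57e-06), which rests mostly on cultivars that hardly read the gene. WRC48, at -2.02, lay between WRC01 at -2.61 and Koshihikari at -1.77, and without WRC01 the difference did not pass.

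**Figure D5:**
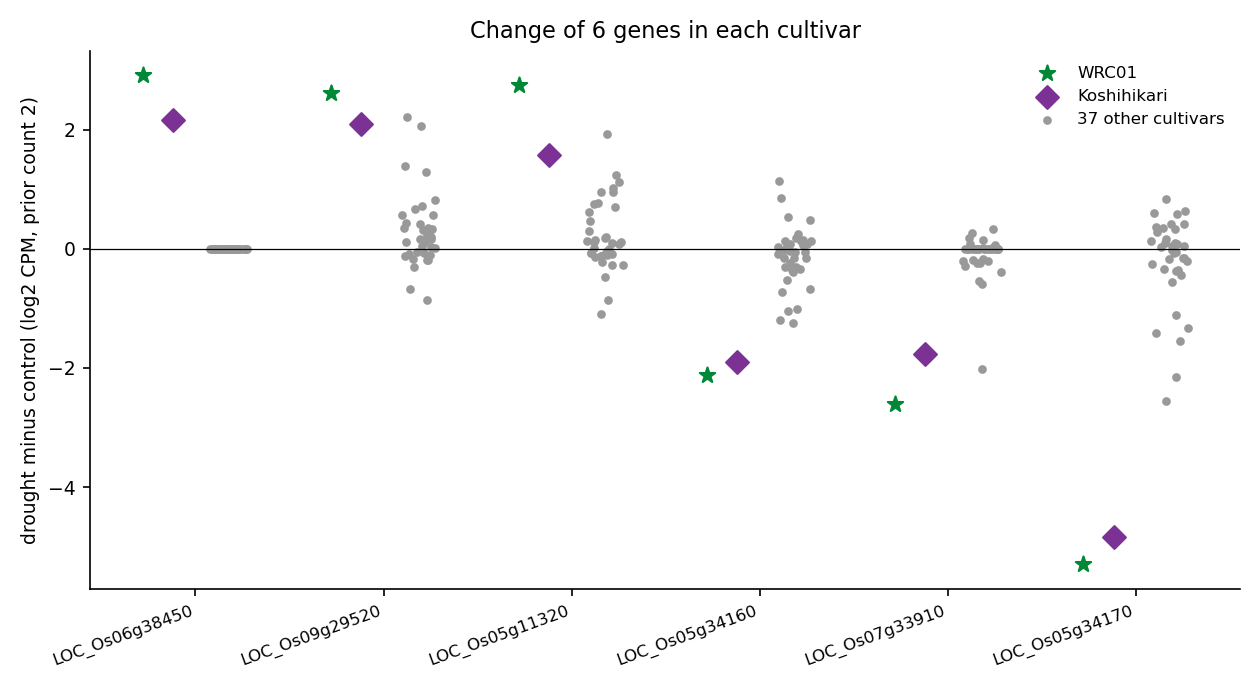
Change of 6 genes in drought minus control (log2 CPM, prior count 2), with WRC01 as a star, Koshihikari as a diamond and each of the 37 other cultivars as a grey point. WRC01 and Koshihikari lie outside the cloud of the others for LOC_Os05g34170 (-5.30 and -4.84), a gene that reached 1 CPM in 19 of the 37. For LOC_Os09g29520 KP (2.22) lies between WRC01 and Koshihikari, and WRC50 (2.065) lies just under Koshihikari. For LOC_Os06g38450 the others had 0 reads, so their points at 0 are not measured changes.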

How the data were processed

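Polyadenylated RNA of leaves was sequenced with a strand-specific kit, per the labels' protocols. The authors deposited 1 table of raw read counts per gene for 55986 identifiers and 239 libraries, with 0 columns left unmatched to a label. Per the submitters' processing notes, STAR, featureCounts 2.0.0 and the genome build IRGSP-1.0 were used. The annotation release, the strand setting and the handling of reads with several positions are not given in the sources used here.

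From these counts, genes of the 12 libraries were filtered with filterByExpr (minimum count 10), scaled by TMM and tested with edgeR 4.0.16 in R 4.3.3. The first model had cultivar and treatment as terms, and the second had 1 mean per cultivar and treatment. A gene was called at a Benjamini-Hochberg adjusted p under 0.05 over the 20480 tested genes and a fold of at least 2. The SE is the log2 fold change divided by the root of the F statistic. The other cultivars were compared with limma 3.58.1 on 1 value per cultivar (prior count 2). WRC09 was left out there because an earlier analysis of these data had found its drought and control plants to differ in cultivar-specific genes. The scripts were tested on simulated counts. Alternatives were RLE size factors, no filter, DESeq2 1.42.0, a replicate block, any fold, thinned counts, each cultivar alone, each library left out, another prior count, and, added after seeing the data, genes widely read only.

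The libraries, comparisons and rules were chosen with earlier results of these data known. Named genes were, for each comparison, the 2 called genes of each direction with the largest change among those that averaged 5 CPM or more and went one way in all same-numbered pairs (no pair condition against other cultivars), leaving out genes already named. Exceptions are stated. Same-numbered drought and control libraries of Koshihikari deviated together at r = 0.142, 0.428 and 0.14, so its block counts stand beside the others. They also share a number in their library names (36, 49 and 110, after D or C), as do those of WRC01 (19, 64 and 90). The labels do not say what this shared number marks.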

Additional observations from a re-analysis of the deposited data

Results flagged for a closer look

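A test of the difference in drought response between WRC01 and Koshihikari together and the 37 other cultivars (limma, adjusted p under 0.05) passed at 120 genes, of which 32 reached 1 CPM in none of the others. Named genes that passed and were read in other cultivars are given with their differences on the log2 scale. LOC_Os05g34170 differed by -4.86 (adjusted p = 3.55e-08), with WRC01 and Koshihikari below all other cultivars. It reached 1 CPM in 19 of the 37 others, and where a gene is hardly read a fall of this size cannot be measured. LOC_Os09g29520 differed by 2.05 (adjusted p = 0.00827), with 1 other cultivar, KP, between WRC01 and Koshihikari. WRC50, at 2.065, lay just under Koshihikari, at 2.092. LOC_Os05g11320 differed by 1.95 (adjusted p = 0.0182), with 1 other cultivar, WRC47, between the pair. It was read at a median of 8270 CPM over the others, against group means of 898 to 5310 CPM in WRC01 and Koshihikari, which were scaled within the 12 libraries only. All of the others read it. LOC_Os07g33910 differed by -2.08 (adjusted p = 3.57e-06), and reached 1 CPM in 3 of them, with WRC48 between the pair. LOC_Os05g34160, next to LOC_Os05g34170, differed by -1.88 (adjusted p = 0.00185).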

How the results depend on the processing

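The response with cultivar as a term had 892 genes with RLE size factors, 966 with DESeq2 and 1288 with low counts kept, of which 891, 883 and 882 were shared with the 896. It had 2862 genes at any fold and 547 on thinned counts, of which 489 were shared. Leaving out each library gave 692 to 1070 genes. The counts for single cultivars moved more. With low counts kept, WRC01 had 1341 genes, Koshihikari 793, both 555, their difference 226, and the difference from the other cultivars 635. DESeq2 called 383 genes in Koshihikari and 277 in both. WRC01 had 1085 at any fold, and Koshihikari 2 when fitted alone. Leaving out single libraries gave 154 to 706 genes in WRC01, 1 to 291 in Koshihikari, 1 to 204 in both and 0 to 0 for their difference. The difference from the other cultivars was 74 genes with a prior count of 0.5, 53 with all cultivars and libraries kept, 27 without WRC01 and 21 among widely read genes. The causes were not tested. In the cultivar-term fit the named genes kept their direction in every alternative run for them, and of those called only LOC_Os04g16826 lost its call, in 9 (8 with a library left out, and the replicate block, adjusted p = 0.0591 by edgeR). In the comparisons of a single cultivar no named gene changed direction. Over 8 genes and 16 alternatives each (added after seeing the data), Koshihikari calls were lost in 40 of 128 cases, with LOC_Os08g04500 alone losing none, and WRC01 calls in 4 of 128, those of LOC_Os04g32850 (each WRC01 drought library left out) and LOC_Os09g29520 (WRC01 control replicate 1). The difference from the other cultivars was lost in 9 of 32 cases over 5 genes, with LOC_Os05g34170 alone losing none.

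The labels tie the replicate numbers, and the shared numbers in the library names, to no plant, day or batch. Same-numbered drought and control libraries of WRC01 deviated together at r = 0.145, 0.236 and -0.0205, and over both cultivars 8 of 12 libraries correlated best with their own number. With the replicate number as a block, 875 genes were called with cultivar as a term (817 shared), 917 in WRC01, 292 in Koshihikari, 238 in both and 0 for the difference.

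The shallowest library, WRC01 drought replicate 3, held 3.01 M reads, where 0 reads allow up to 0.92 CPM.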

Other observations

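The 148 genes were those with a log2 fold change under -2 in WRC01 and within 1 of 0 in Koshihikari. They made up 0.0365, 0.0603 and 0.358% of the scaled reads in WRC01 drought, against 1.09, 1.19 and 0.54% in WRC01 control. In Koshihikari they made up 1.33, 0.0939 and 0.926% in drought, against 1.63, 0.0496 and 0.787% in control. Koshihikari replicates 1 and 3 thus lay above the lowest irrigated WRC01 library in both treatments, and replicate 2 lay below the highest WRC01 drought library in both. Over the 37 other cultivars 145 of the 148 had a mean change below 0, with a median of -0.84 on the log2 scale. Since the genes were chosen for their values in these libraries, no test was run.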
